A study of Drosophila melanogaster with 2 samples.

Results

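The 300 strongest CG2129-eGFP sites inside introns and away from annotated promoters are described here. They were taken from the pooled ranked peak list, which holds 47947 peaks, 47806 of them on the major arms (X, 2L, 2R, 3L, 3R) and chromosome 4. A site qualified when its summit lay over 500 bp from every annotated transcription start site (TSS), inside a gene and in no exon, which 14374 peaks did. Of these, the 300 with the highest pooled signal were kept. Signal therefore chose the sites, and pooled signal, its rank and values computed from the same peaks are given as description. No test was made on them, and motif, intron and host gene shares are likewise given as counts with intervals.

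The study mapped where CG2129 sits on the genome of Drosophila melanogaster by chromatin immunoprecipitation followed by sequencing (ChIP-seq). It has 1 group of 2 biological replicates. Both are whole embryos of 0 to 4 h of a transgenic strain that expresses CG2129 as a fusion with enhanced green fluorescent protein (eGFP), with DNA recovered through an antibody against GFP. Both replicates carry the fusion and the same donor label, and the samples include no untagged or untreated group. Per the labels the fusion is an insertion targeting CG2129. The labels do not say what drives it, nor whether the untagged protein was also present. Embryos were used whole, so a site may be occupied in some cells only. Peak lists hold no RNA, and the stage could not be checked against marker genes.

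CG2129 encodes a C2H2 zinc finger protein, a class whose fingers often read DNA sequence. Introns of fly genes, and first introns in particular, hold many enhancers, the elements that set where and when a gene is transcribed, as well as alternative promoters and insulators. DREF and BEAF-32 bind a palindromic element found at promoters of broadly expressed genes and at domain borders. Trl (the GAGA factor) and CLAMP bind GA repeats and keep chromatin open, and Zelda opens enhancers of the early embryo through its core element.

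The rule itself, read from the Ensembl annotation, places all 300 summits in introns. In a second annotation, RefSeq on the same assembly, 0 of 300 lay within 500 bp of a transcript start. RefSeq gave the same distance to a start as Ensembl at, for example, zf30C (772 bp) and SK (17510 bp). The count thus largely repeats the rule and is no independent check. The host was a protein-coding gene at 295 sites and a noncoding RNA gene at 5. The lowest sites inside the selection were in Treh (trehalase), with a signal of 26.33, ed (an immunoglobulin-domain adhesion protein), with 26.30, and puc (a phosphatase of the JNK pathway), with 26.28. The first sites left out, in simj, Bicra and Pde8, had 26.26, 26.24 and 26.23, so signal ran on across the border without a gap.

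The sequences that follow are the summit base and the 50 bases to either side of it (dm6, plus strand, from the NCBI copy of Release 6). The 6 strongest sites are shown because they lead the ranking. CG42709 is the strongest with a CAGGTA near its summit, although that CAGGTA falls outside the printed stretch. Larp4B is the strongest with GAGAG, and Rbp, the RIM-binding protein gene, chosen after its values were seen, represents the sites with GAGAGAG that lie outside the pooled thresholded list. Capitals mark matches on either strand to TATCGAT (the DREF and BEAF-32 element), to core promoter motif 7 (CAGCNCTA, CAGCNCTG, CATCNCTA or CATCNCTG) and to GAGAG (the Trl and CLAMP element).
zf30C, chr2L:9759064-9759164: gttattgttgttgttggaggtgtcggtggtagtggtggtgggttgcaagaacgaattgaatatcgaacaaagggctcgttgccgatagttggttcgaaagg
Asator, chr4:486625-486725: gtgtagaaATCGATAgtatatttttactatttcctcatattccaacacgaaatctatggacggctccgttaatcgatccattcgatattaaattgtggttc
Pp2C1, chrX:4684723-4684823: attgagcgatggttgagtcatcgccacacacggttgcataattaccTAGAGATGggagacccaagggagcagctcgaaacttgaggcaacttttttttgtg
Kdm2, chr3R:9057487-9057587: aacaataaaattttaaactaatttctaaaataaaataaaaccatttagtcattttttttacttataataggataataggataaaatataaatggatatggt
SK, chrX:5382685-5382785: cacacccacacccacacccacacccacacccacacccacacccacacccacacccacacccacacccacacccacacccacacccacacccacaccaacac
Pgd, chrX:2146151-2146251: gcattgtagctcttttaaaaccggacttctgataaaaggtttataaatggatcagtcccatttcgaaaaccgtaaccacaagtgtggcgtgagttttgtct
CG42709, chr3L:12794702-12794802: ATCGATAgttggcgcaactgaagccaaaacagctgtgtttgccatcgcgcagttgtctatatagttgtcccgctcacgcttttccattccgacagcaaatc
Larp4B, chr3L:3225413-3225513: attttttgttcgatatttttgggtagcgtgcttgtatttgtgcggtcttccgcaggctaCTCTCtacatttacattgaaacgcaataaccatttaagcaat
Rbp, chr3R:15379135-15379235: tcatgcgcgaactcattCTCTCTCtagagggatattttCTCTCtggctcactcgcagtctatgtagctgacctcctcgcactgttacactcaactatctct
Asator and CG42709 carry the DREF and BEAF-32 element, Pp2C1 carries motif 7, and Larp4B and Rbp carry GA elements. The SK stretch is a tandem repeat of a 6-base unit almost throughout, and the printed zf30C, Kdm2 and Pgd stretches hold none of these elements. The zf30C site does have motif 7 within 100 bp of its summit, outside the printed stretch, and is counted with it below.

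Signals of the 300 sites ran between 26.3 and 156, in the authors' unit, whose scale is not stated. The median was 30.0 (quartiles 28.1 and 35.7), against 11.6 at the 14074 other intronic ranked peaks and 78.9 at the 1954 promoter peaks of the pooled thresholded list. The strongest site lay in the first intron of zf30C, a zinc finger gene (chr2L:9758946-9759273), with a pooled signal of 156, 91.8 in replicate 1 and 76.6 in replicate 2. Asator, the fly relative of tau tubulin kinases, held the next in its first intron (chr4:486569-486794), with 144 pooled, 88.1 in replicate 1 and 60.2 in replicate 2. These 2 sites stood high in both replicates' own lists, at ranks 268 and 210 for zf30C and 305 and 373 for Asator in replicates 1 and 2. The site in the first intron of Pp2C1, a protein phosphatase gene, had 120 pooled, with 86.2 in replicate 1 and 38.1 in replicate 2.

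Pgd, which encodes an enzyme of the pentose phosphate pathway, had a site with 111 pooled, 64.7 in replicate 1 and 49.5 in replicate 2. A second, overlapping Pgd peak with 45.8 pooled matched the same replicate peaks, so the 2 peaks share their replicate values. Tudor-SN, a nuclease of RNA silencing complexes, had 103 pooled, with 49.2 in replicate 1 and 57.4 in replicate 2. Larp4B, a La-related RNA-binding protein, had 82.9 pooled, with 44.3 and 41.1. At these sites the replicates' own ranks ran between 418 (Tudor-SN in replicate 2) and 1070 (Larp4B in replicate 1).

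As at Pp2C1, the replicates' signals were unequal at further strong sites. The site in an intron of SK, a calcium-activated potassium channel, had 115 pooled and 106 in replicate 2, where it ranked 69, and matched no ranked peak of replicate 1. This is the tandem repeat printed above, and whether the repeat bears on its signal was not tested. The site in org-1, a T-box transcription factor, had 80.2 pooled, with 65.6 in replicate 1 and 19.4 in replicate 2. CG12535 had 75.0 pooled, with 27.3 in replicate 1 and 45.3 in replicate 2. The site in woc, a zinc finger gene, had 62.4 pooled, with 42.7 in replicate 1 and 19.4 in replicate 2.

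Among the rest of the 20 strongest, CG42709 (nested with the autophagy kinase gene Atg1) had 88.6, the JNK pathway kinase gene msn 77.8, and kirre, an adhesion receptor of myoblast fusion, 70.9. The sites in sn (the actin bundler fascin) and BRWD3 (a bromodomain protein) each had 69.1. CG42747 had 69.0, not (a deubiquitinase of the SAGA complex) 65.5 and the homeotic gene lab 64.0. The last of these 20 was the woc site with 62.4. Further down, the site in mam at rank 57 had 39.0, and the last at rank 300 had 26.28.

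**Figure D1:**
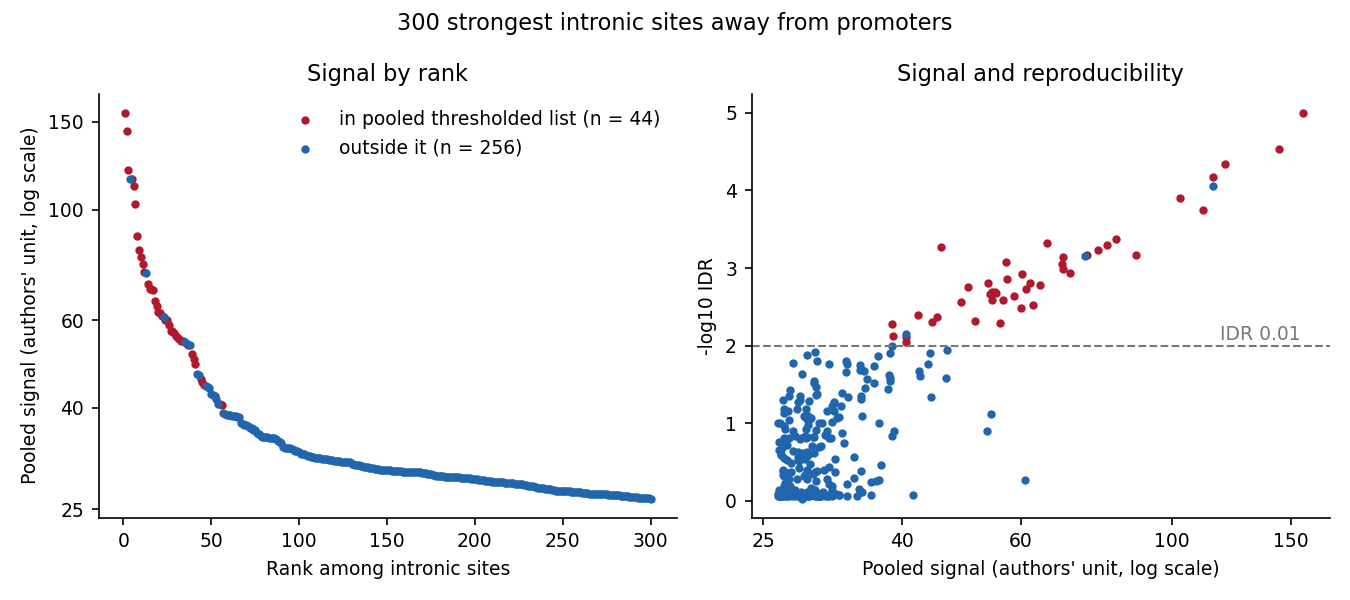
Pooled signal (log scale) by rank, and −log10 IDR against pooled signal (log scale), for the 300 sites, with the 44 in the pooled thresholded list in red and the 256 outside it in blue. All red points lie within the upper 100 ranks, and the dashed line marks an IDR of 0.01.

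The irreproducible discovery rate (IDR) estimates how many peaks of a list would fail to recur in a second ranking. The rankings behind it are not known here. The authors' pooled thresholded list, cut at an IDR of 0.01, held 44 of the 300 sites (14.7%, 95% exact interval 10.9 to 19.2). Over all ranked peaks on the arms that share was 4.32%, and over all 14374 intronic candidates 0.320%, since only 46 of them passed. All 44 were among ranks 1 to 100, and 0 of 100 passed in each of the 2 further blocks of 100 ranks, which allows a share of up to 3.62% (exact interval). IDR was 0.5 or more at 104 of the 300 (34.7%, 29.3 to 40.3). The median −log10 IDR was 0.716 at the 300 sites. At other intronic ranked peaks it was 0.0310, with an upper quartile of 0.0996, so an IDR of 0.5 or more was more common there.

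A few sites did not follow this order. Kdm2, a histone demethylase gene, ranked 4 with a signal of 115 and a −log10 IDR of 4.05, and had 75.5 in replicate 1 and 40.1 in replicate 2. It was nevertheless in none of the thresholded lists, pooled, conservative or of a replicate. COX7AL2 (74.6, −log10 IDR 3.16) and Bacc (40.7, −log10 IDR 2.15) also passed the IDR and stood outside both pooled thresholded lists. The site in wts, the Hippo pathway kinase gene, had a signal of 60.8 and a −log10 IDR of 0.27. It stood in the conservative list and not in the pooled thresholded one. The conservative list held 50 of the 300 sites (16.7%), against 4.22% of all ranked peaks, and 38 sites were in both.

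Replicate 1's thresholded list held 32 of the sites (10.7%, against 3.92% of all ranked peaks) and replicate 2's held 17 (5.67%, against 3.19%). Both held 11 (3.67%, against 2.52%), namely zf30C, Asator, Pp2C1, the 2 overlapping Pgd peaks, Tudor-SN, Larp4B, msn, kirre, CG42747 and not. A further 21 were in replicate 1's thresholded list only and 6 in replicate 2's only, and 262 were in neither. Of the 44 sites of the pooled thresholded list, 11 were in the thresholded lists of both replicates and 11 in neither. These last included Eip75B, an ecdysone-induced nuclear receptor (48.9 pooled, 25.6 in replicate 1 and 22.2 in replicate 2), and kis, a chromatin remodeller (44.4, with 35.4 and 11.1). The site in kay, the fly Fos gene, also passed the pooled threshold with 38.8, ranked 3484 in replicate 1 and matched no ranked peak of replicate 2. A second kay site with its summit 268 bp away, outside that list with 33.2, matched the same replicate 1 peak and a replicate 2 peak with 19.4 at rank 2155.

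Most sites were nevertheless seen in each replicate's ranked list, which also holds weak peaks. Replicate 1's ranked list held 278 of the 300 (92.7%, against 53.9% of all ranked peaks) and replicate 2's 260 (86.7%, against 54.2%). Both held 239, or 79.7%, against 26.6% of all ranked peaks, and 1 site matched neither. The pooled list was made from both replicates, so these counts are no independent measure of repeatability. The median rank was 3684 of 40649 peaks in replicate 1 and 3588 of 47445 in replicate 2. Across the 239 sites the Spearman correlation of the replicates' signals was 0.17, as a description over sites that share 2 libraries and were chosen by pooled signal. Across the 197 of them outside the pooled thresholded list it was -0.28. Pooled signal, by which the sites were chosen, had quartiles of only 27.6 and 31.8 at the 256 sites outside that list. Such a narrow pooled range ties the replicates' values to each other. Neither correlation therefore measures how well the replicates agree.

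**Figure D2:**
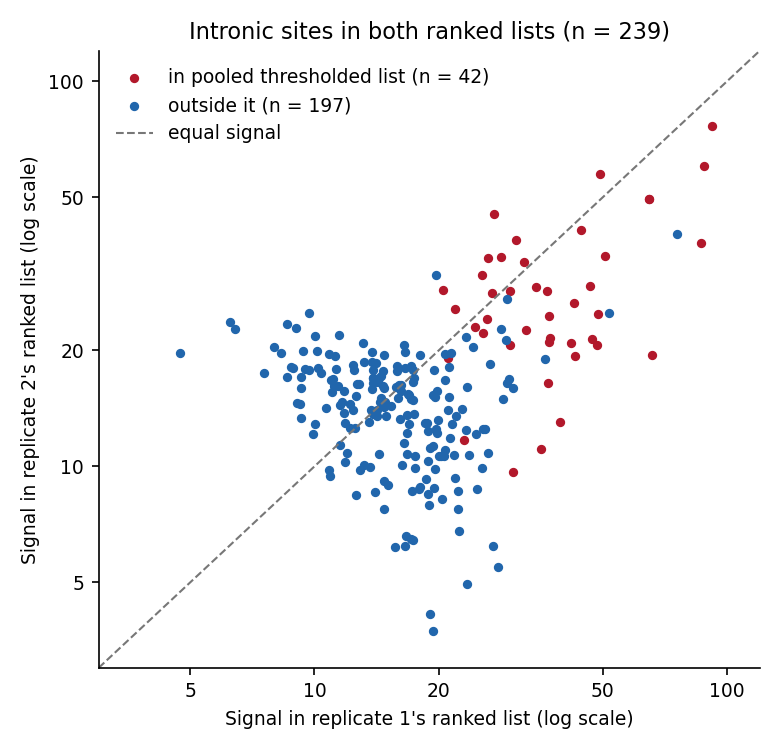
Signal in replicate 2's ranked list against signal in replicate 1's (both log scales) for the 239 sites found in both, with 42 of the pooled thresholded list in red and 197 outside it in blue. Points lie on both sides of the dashed line of equal signal, 146 of 239 with the higher value in replicate 1.

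How far the membership rests on one replicate was seen by applying the same rule to each replicate's ranked list alone. The 300 sites chosen from replicate 1 included 125 of the pooled 300, or 41.7%, and those from replicate 2 included 112, or 37.3%. The 2 single-replicate selections shared 50 of 300. The other pooled ranked list gave 294 of the 300. Values for the 44 sites of the pooled thresholded list are given apart from the 256 outside it.

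Sequence elements were counted within 100 bp of the summit in these 2 classes. All 44 sites of the pooled thresholded list were among the upper 100 ranks, so the 2 classes also differ in signal. Whether a share goes with the threshold or with signal rank was not tested. The DREF and BEAF-32 element, TATCGAT, was found at 14 of the 44 sites in the pooled thresholded list (31.8%, interval 18.6 to 47.6) and at 16 of the 256 outside it (6.25%, 3.61 to 9.95), so the intervals did not overlap. In the windows 1000 bp away it was at 7.95% (3.26 to 15.7) around the 44 and at 2.54% (1.36 to 4.30) around the 256. In all it was at 30 of 300 (interval 6.85 to 14.0%), against 2.37% of other intronic ranked peaks, 3.33% of the windows 1000 bp to either side of the sites and 55.9% of thresholded promoter peaks. It was at 14.0% of the 300 strongest intergenic sites (10.3 to 18.4) and 6.33% of the 300 strongest exonic sites (3.86 to 9.71), whose intervals overlap that of the intronic sites. The full palindrome TATCGATA, which contains it, was at 5.33% of the 300 sites and at 32.7% of promoter peaks. Seen the other way, 14 of the 30 sites with TATCGAT were in the pooled thresholded list (46.7%), against 30 of the 270 without it (11.1%). In successive blocks of 100 ranks, strongest first, TATCGAT was at 19, 5 and 6 sites. The 3 strongest sites with TATCGAT were in Asator, Tudor-SN and CG42709, whose signals are given above.

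Core promoter motif 7 had the same order of shares, with intervals that overlapped. It was at 10 of 44 sites in the pooled thresholded list (22.7%, 11.5 to 37.8) and at 27 of 256 outside it (10.5%, interval from 7.07%). By signal, motif 7 was at 20, 11 and 6 sites in successive blocks of 100 ranks, strongest first. The interval was 12.7 to 29.2% in the first block and 2.23 to 12.6% in the last. The threshold and signal rank were thus not separated for motif 7. Other intronic ranked peaks had it at 5.90%, all windows 1000 bp away at 6.83% and promoter peaks at 33.8%. The windows 1000 bp away from the 44 had it at 11.4% (5.59 to 19.9) and those from the 256 at 6.05% (4.15 to 8.48). Both of these intervals overlap those at the summits. In all it was at 12.3% of the 300 (8.83 to 16.6), against 17.3% (13.2 to 22.1) of the strongest intergenic sites and 9.33% (6.29 to 13.2) of the strongest exonic sites, again with overlapping intervals. Either TATCGAT or motif 7 was present at 22 of the 44 (interval 34.6 to 65.4%) and at 39 of the 256 (11.1 to 20.2%). The promoter element of M1BP, another zinc finger protein, was found at 0 of 300 sites, which allows a share of up to 1.22% (exact interval), against 0.0711% of other intronic ranked peaks, 0 of the 600 windows 1000 bp away and 3.99% of promoter peaks. The share of the other intronic peaks lies inside the interval of the 300 sites.

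GA elements had the opposite order of shares, again with overlapping intervals. The strongest sites with GAGAG were in Larp4B, in side-V (61.9 pooled, 37.1 in replicate 1 and 24.5 in replicate 2) and in wts (60.8, with 29.3 and 27.1). GAGAG was at 12 of the 44 sites in the pooled thresholded list (27.3%, interval up to 42.8%) and at 100 of the 256 outside it (39.1%, 33.0 to 45.3). Over all 300 sites it was at 37.3%, against 24.2% of other intronic ranked peaks, 26.2% of the windows 1000 bp away and 15.3% of promoter peaks. GAGAG was at 34, 43 and 35 sites in successive blocks of 100 ranks, strongest first. The longer GAGAGAG, which contains GAGAG, was at 2 of 44 (4.55%, 0.555 to 15.5) and 42 of 256 (16.4%, 12.1 to 21.5), against 4.21% of other intronic ranked peaks, 30 of the 600 windows 1000 bp away and 2.56% of promoter peaks. Those windows held it at 7.95% (3.26 to 15.7) around the 44, a higher share than at their summits, and at 4.49% (2.87 to 6.66) around the 256. The Rbp site printed above, one of the 42, had 36.4 pooled, with 22.2 in replicate 1 and 7.73 in replicate 2. Among the 300 strongest intergenic sites GAGAGAG was at 6.67%, and among the 300 strongest exonic sites at 1.00%. Only 7 of the 300 intronic sites held both TATCGAT and GAGAG, and 141 held none of TATCGAT, motif 7, GAGAG and CAGGTA.

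**Figure D3:**
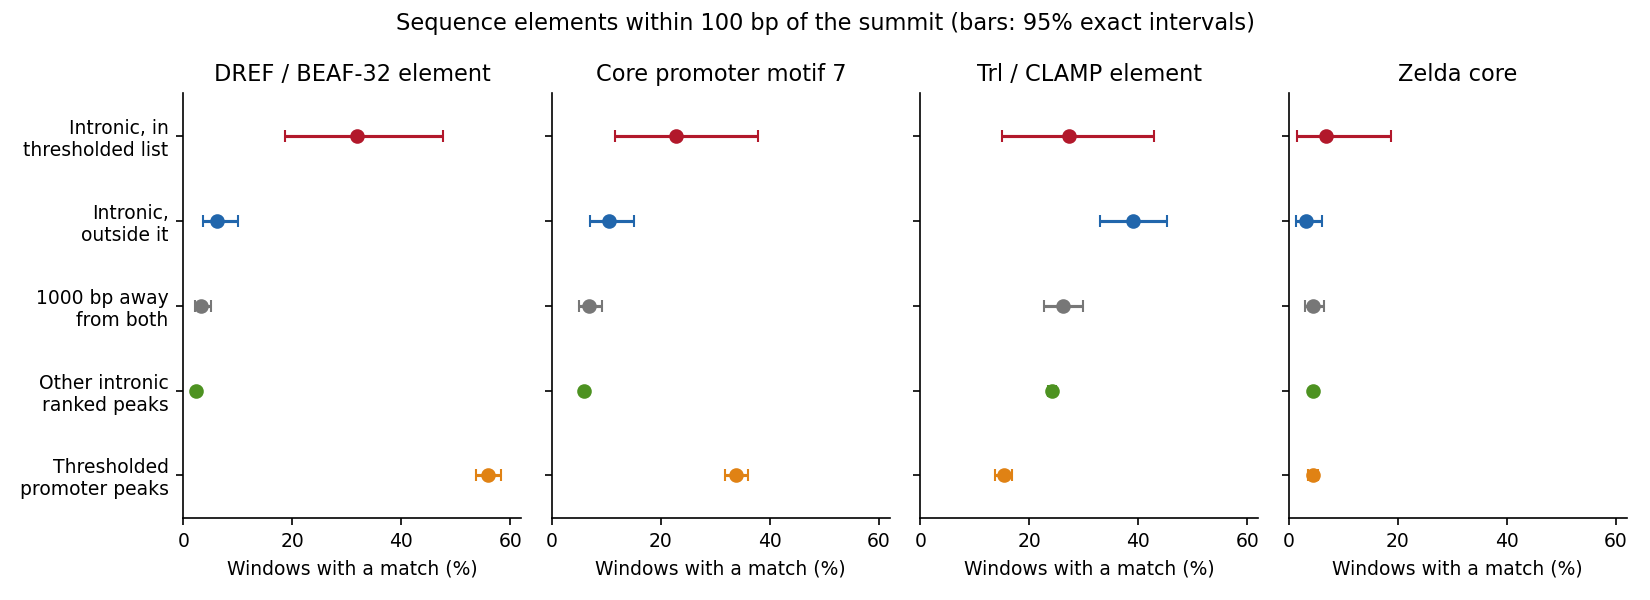
Share of windows of 100 bp to either side of the summit (%, with 95% exact intervals) that hold each of 4 elements, for the 44 intronic sites in the pooled thresholded list, the 256 outside it, windows 1000 bp away from both, the 14074 other intronic ranked peaks and the 1954 thresholded promoter peaks. The DREF and BEAF-32 element was at 31.8% of the 44 and 6.25% of the 256, while the Trl and CLAMP element was at 27.3% and 39.1%.

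The core of Zelda, CAGGTA, was at 11 of 300 sites (3.67%, 1.84 to 6.47), against 4.47% of other intronic ranked peaks, 27 of the 600 windows 1000 bp away and 4.40% of promoter peaks, all of which lie inside its interval. It was at 5.33% (3.08 to 8.52) of the strongest intergenic sites and 7.67% (4.92 to 11.3) of the strongest exonic sites. The exonic share lies above the interval of the intronic sites, although the intervals overlap. The 3 strongest intronic sites with CAGGTA were in CG42709, lab (37.2 in replicate 1 and 21.6 in replicate 2) and mam (26.4 and 34.7). Of these the lab summit fell in an annotated transposable element. The E-box CACATG, bound by basic helix-loop-helix factors, was at 16.3% (12.3 to 21.0), against 11.2% of other intronic ranked peaks. Its share was 9.09% (2.53 to 21.7) at the 44 sites in the pooled thresholded list and 17.6% (13.1 to 22.8) outside it. The other E-box searched, CATATG, was at 7.67% of the 300 (4.92 to 11.3), against 6.77% of those peaks. TTTATG, a Caudal element, was at 19.3% and TAATCC, a Bicoid element, at 5.67%, against 21.9% and 6.04% of other intronic ranked peaks. The 18 motifs were searched on both strands. A match describes the letters only.

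The nearest match lay a median of 30.0 bp from the summit for TATCGAT, 41.5 bp for motif 7 and 34.0 bp for GAGAG, at the sites that held each. Only matches within 100 bp of the summit were counted, which bounds these medians. No value for matches placed at random was computed, so they do not show that the elements centre on the summit. Positions were read along the plus strand, whatever the strand of the gene. In the 44 sites of the pooled thresholded list the 50 bp just before the summit held TATCGAT at 8 sites (18.2%), the most of any bin. In the 256 sites outside that list TATCGAT was highest in the 50 bp just after the summit, at 3.12%. GAGAG, a shorter word, was at between 13 and 46 of those sites in each 50 bp bin over the 500 bp to either side. At the 44 sites GAGAG was at up to 15.9% in a bin. Of all 8-base words, GAGAGAGA exceeded its mean count in the windows 1000 bp away by most, at 30 of 300 summit windows and 19 of 600 of those windows. AGAGAGAG, the same repeat shifted by 1 base, came next with 9.67% and 3.33%, then ACACACAC with 10.3% and 4.17% and GAGCGAGA with 7.33% and 2.33%. The first 3 of these words are simple repeats. The median share of repeat-masked bases was 12.4% at the 300 sites.

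**Figure D4:**
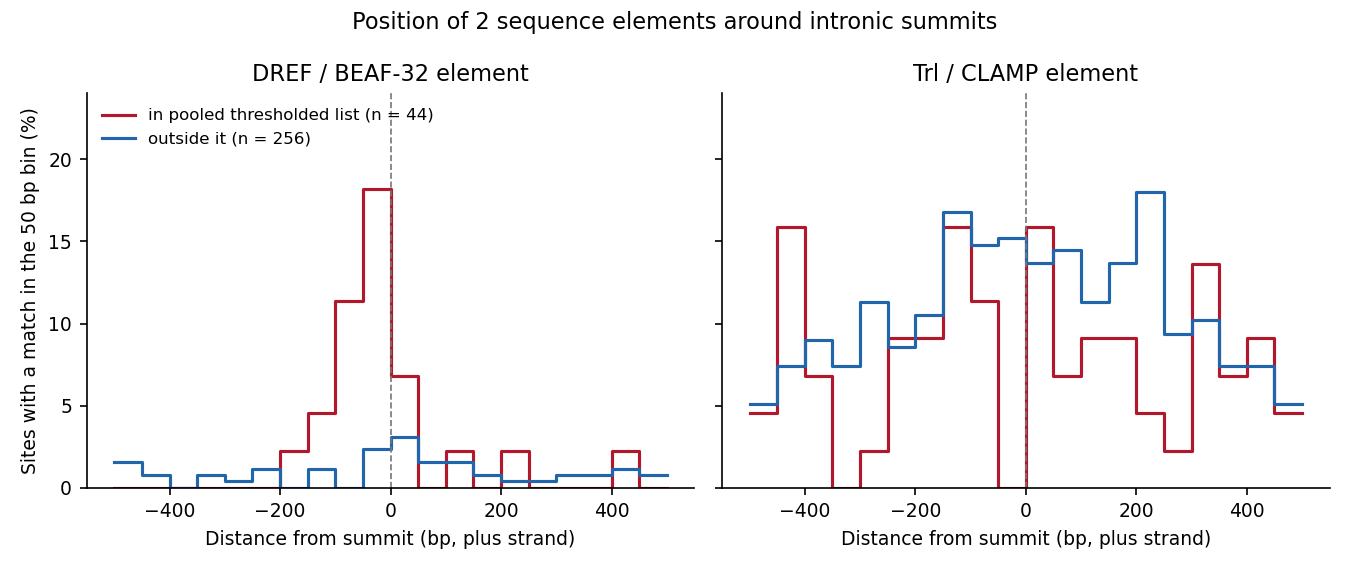
Share of sites (%) with a match centred in each 50 bp bin around the summit (distance in bp), for the DREF and BEAF-32 element and the Trl and CLAMP element, in the 44 sites of the pooled thresholded list (red) and the 256 outside it (blue). Distances run along the plus strand. The DREF and BEAF-32 element peaks at 18.2% (8 of 44 sites) just before the summit in red, and the Trl and CLAMP element is spread over the window.

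GC content within 100 bp of the summit had a median of 45.8% at the 300 sites, against 43.8% at other intronic ranked peaks, 41.3% and 42.3% in the windows 1000 bp before and after them, and 37.3% at promoter peaks. It was 41.0% (interval of the median 37.8 to 45.3) at the 44 sites in the pooled thresholded list and 45.8% (44.8 to 47.3) at the 256 outside it. The part of base composition in the motif shares was not tested.

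The median distance to the nearest TSS was 1872 bp (interval 1692 to 2240), against 3783 bp (3683 to 3870) at other intronic ranked peaks. A total of 80 sites lay within 1000 bp of a TSS, 60 over 5000 bp away and 28 over 10000 bp away. The intron was the first in every transcript that has it at 150 of 300 sites (interval 44.2 to 55.8%), against 32.4% (31.6 to 33.2) of other intronic ranked peaks. Distance to the TSS moves with this share, so it was also read within bands of distance, chosen after the data were seen. At 500 to 1000 bp it was 58.8% (47.2 to 69.6) against 52.3%, at 1000 to 5000 bp 53.1% (45.1 to 61.0) against 37.5%, and beyond 5000 bp 18 of 60 (18.8 to 43.2%) against 20.8%.

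The same bands were read for the elements. TATCGAT was at 13.8% of the sites at 500 to 1000 bp, 8.12% at 1000 to 5000 bp and at 6 of 60 beyond, against 2.54%, 2.63% and 2.03% of other intronic ranked peaks. GAGAG was at 31.2%, 41.9% and 33.3%, against 26.5%, 24.2% and 23.5%. The interval of GAGAG at 500 to 1000 bp (21.3 to 42.6) and that beyond 5000 bp (21.7 to 46.7) included the shares of the other intronic peaks in the same bands.

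The intron around the summit had a median length of 6102 bp (interval 4959 to 8058), against 8915 bp (8682 to 9202) at other intronic ranked peaks. This comparison was not made within bands of distance, and the 300 sites lie nearer a TSS. With summits over 1000 bp from a TSS the median of the 300 strongest was 9122 bp (7133 to 11593). Among the 300 sites as chosen it was 2620 bp (1327 to 8692) in the pooled thresholded list and 6818 bp (5282 to 9210) outside it. Introns of up to 2000 bp held 28.3% of the 300 sites (23.3 to 33.8), against 19.1% of other intronic ranked peaks. Within the 20 strongest they ranged between 140 bp in CG42709 and 105464 bp in kirre.

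**Figure D5:**
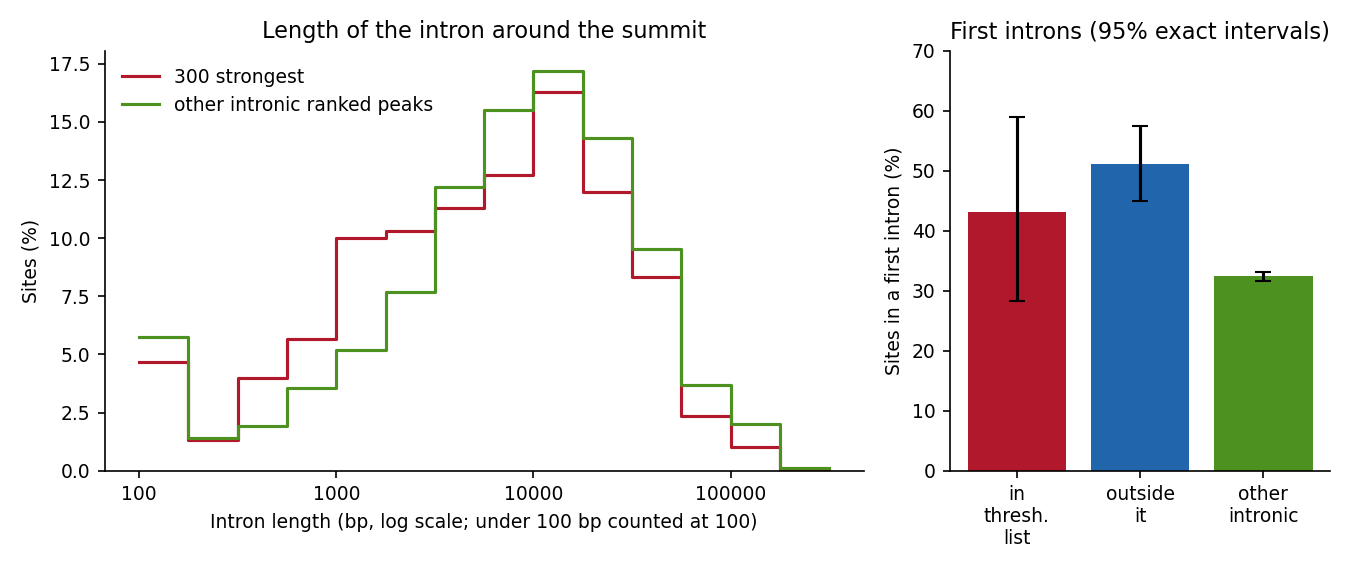
Length of the intron around the summit (log scale) for the 300 sites and the 14074 other intronic ranked peaks, and the share (%, bars with 95% exact intervals) in an intron that is first in every transcript. First introns held 43.2% of the 44 sites in the pooled thresholded list, 51.2% of the 256 outside it and 32.4% of other intronic ranked peaks.

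A thresholded peak at a promoter of the host gene accompanied 83 of the 300 sites (27.7%, 22.7 to 33.1), against 18.2% (17.6 to 18.9) of other intronic ranked peaks. By gene, 67 of 269 protein-coding hosts (24.9%, 19.9 to 30.5) had such a promoter, against 18.8% of the 11550 other protein-coding genes with an intron and 18.9% of all of them. A gene counted when any of its TSSs had a thresholded summit within 500 bp. Hosts had a median span of 18416 bp against 2510 bp for those other genes, and genes of equal span were not compared. Within the bands of distance the site share was 27.5% against 24.9% at 500 to 1000 bp, 48 of 160 against 22.2% at 1000 to 5000 bp, and 21.7% against 11.8% beyond. The nearest TSS belonged to a host gene at 220 of the 300 sites.

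The sites fell in 263 host genes, as named first at each site. The Notch coactivator gene mam held 5, with signals between 26.9 and 58.5, of which 1 was in the pooled thresholded list. The gene klar, which acts in nuclear positioning, held 4 (27.0 to 55.0), of which 2 were in that list. The other hosts with 3 sites each were rdx (an adaptor of ubiquitin ligases), shot (a spectraplakin linking actin and microtubules), tna and wts, none with a site in the list. These are mostly long genes: mam spans 69154 bp, klar 106532 bp and shot 77874 bp, while wts spans 16995 bp. Promoters of mam, klar, shot and wts carried thresholded peaks, and those of rdx and tna did not.

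Hosts were long as a class, with a median span of 18416 bp against 2510 bp for other protein-coding genes with an intron. Of all such genes 2.28% hosted a site, and of those spanning 10000 bp or more 9.91%, so counts by gene group are read beside the group's median span. Genes of the signalling pathways were hosts in 12 of 45 (26.7%, median span 15575 bp) with 18 sites. Of these arr, a Wingless co-receptor, had 61.1, mam 58.5 at its strongest, the kinase gene sgg 33.2 and Egfr 31.9, and the arr site and the strongest mam site were in the pooled thresholded list.

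Pioneer and chromatin factor genes were hosts in 6 of 33 (18.2%, median span 11883 bp). They were Trl, itself the GAGA factor (36.7 and 29.0), psq, another binder of GA repeats (38.5), kis (44.4 and 28.7), grh (30.8), opa (29.4) and osa (26.8). Of these only the stronger kis site was in the pooled thresholded list. RNA-binding regulators were hosts in 5 of 33 (15.2%, median span 36409 bp), among them the neuronal gene elav (54.4 and 30.9) and mub (42.2), both with a site in that list, and Imp (38.5).

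Homeotic genes were hosts in 2 of 10 (median span 24849 bp), lab with 64.0 and Ubx with 31.5, and only the lab site was in the pooled thresholded list. The summit of that lab site fell in an annotated transposable element. Dorsoventral and mesoderm genes gave 3 of 21 (14.3%, median span 13535 bp), of which Mef2, the muscle transcription factor, had 38.8 and tin, the heart factor, 29.7. Ecdysone response genes also gave 3 of 21 (median span 33354 bp), with Eip75B at 48.9, Blimp-1 at 35.3 and Eip63E at 31.3. Segmentation genes gave 2 of 28 (7.14%, median span 4494 bp), ptc with 29.6 and opa.

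Groups of long genes did not all hold many sites. Ion channel and synapse genes, with a median span of 36628 bp, were hosts in 2 of 51 (3.92%), SK and Shab. Axon guidance and adhesion genes, with 40634 bp, were hosts in 4 of 49 (8.16%), kirre, fra, Nrt and Fas1. Muscle and cytoskeleton genes gave 2 of 34 (5.88%, median span 19180 bp), Prm and shot. Cytoplasmic ribosomal protein genes, with a median span of 1374 bp, gave 0 of 86.

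The sites were spread over all arms, with 42 on X, 54 on 2L, 59 on 2R, 73 on 3L, 69 on 3R and 3 on chromosome 4. Arm X held 14.0% of them and 19.1% of all intronic candidates, and 3L held 24.3% and 18.6%. Within 5000 bp of another of the 300 sites lay 36, and 7 summits fell in an annotated transposable element, among them that of the lab site. With such elements kept in the annotation, 41 of the 300 strongest sites were in the pooled thresholded list, against 44.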

How the data were processed

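Peak lists on dm6 were deposited for each of 2 biological replicates and for the pool. The signal per peak is the value the authors deposited, with no stated scale, and the −log10 IDR was also deposited by the authors. Aligner, caller and versions: not given in the sources used here. Read depth is not known, so intervals cover counting over sites only. Inside the ranked lists 32 columns of per-ranking values were not used, because nothing ties them to a sample.

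Genes came from Ensembl release 115 on BDGP 6.54 without transposable elements (18164 genes, 23998 TSSs). No peak ran past an arm's end in the NCBI Release 6 sequence. Peaks matched where they overlapped by 50% of either peak. Shares carry 95% exact Clopper-Pearson intervals, and medians exact order-statistic intervals. The 18 motifs and 11 gene lists were counted within 100 bp of summits and over host genes. Entries matching no symbol were left out. Members, motifs and lists were chosen with earlier results of these data known. Sites named are the 20 strongest, those in both replicates' thresholded lists, hosts with 3 or more sites, those by the border, the 3 strongest with the DREF, Zelda or Trl element, and list hosts; other named sites were chosen after their values were seen. Scripts ran in Python 3.11.15 with pandas 2.3.3, numpy 2.4.6, scipy 1.17.1 and matplotlib 3.10.9, and were tested on simulated data. Alternatives changed the distance, the number of sites, the annotation, the list, the overlap and the window.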

Additional observations from a re-analysis of the deposited data

How the results depend on the processing

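No paired analysis was possible because there is 1 group and no contrast. Of 92 recomputed values 71 stayed within the spread of the main one (within 1.5 times, for counts). With summits over 1000 bp from a TSS the thresholded sites were 27 (44 at 500 bp), those in both replicates' thresholded lists 5 (11), first introns 41.7% (150 of 300 sites) and the median intron 9122 bp (6102 bp). The 100 strongest had 93 sites in both ranked lists and TATCGAT at 19.0%; the 600 strongest had 425 in both ranked lists and first introns at 41.2%. In the pooled thresholded list alone GC was 41.0%, the intron 2620 bp, first introns 43.2%, CAGGTA 6.82%, GAGAG 27.3% and TATCGAT 31.8%; outside it, an alternative chosen after seeing the data, TATCGAT was 6.25%. Counting overlapping sites once, also chosen after seeing the data, moved no value beyond that spread. Windows of 50 bp gave GAGAG at 23.0%, and windows of 200 bp gave GAGAG at 55.7% and CAGGTA at 10.7%. Choosing the sites without replicate 1 or without replicate 2 gave first introns at 41.3% to 43.0% and GAGAG at 30.7% to 37.3%. The cause was not tested for any of these. Unknown read depth limits how far weak signals can be ranked.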
